A study of Mus musculus with 47 samples.

Results

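Deletion of the transcription factor Rbpj was examined in muscle progenitor cells that already lacked MyoD, by setting 7 microarrays of Rbpj;MyoD mutant embryos against 18 arrays of MyoD mutant embryos. The arrays were chosen by their titles alone, and these 25 belong to a series of 47. The cells were sorted at E17.5 from embryonic back muscle as positive for Vcam-1 and negative for CD31, CD45 and Sca1. The Rbpj;MyoD mutant was Pax3cre/+;Rbpjflox/flox;MyoD-/-, and a second double mutant, Pax3cre/+;DnMamlflox/flox;MyoD-/- (8 arrays), served as a further comparison. They are called the Rbpj double mutant and the DnMaml double mutant below. The MyoD mutant was MyoD-/- and its label names no Cre. Loss of MyoD was therefore shared by all 3 groups, whereas Cre driven from the Pax3 locus was carried by both double mutants only, so that its presence and the loss of Rbpj cannot be told apart in the comparison with MyoD-/-. The embryos came from a background in which 129/Sv, 129/Ola and C57BL/6 were mixed. The sources used here do not give whether the cells on an array came from 1 embryo or from several, so p-values measure the spread between these samples. Arrays at the same position of chips 6 and 7 were averaged, which left 6 Rbpj double mutant, 7 DnMaml double mutant and 16 MyoD-/- samples on 6 chip sets.

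Rbpj is the DNA-binding protein through which all Notch receptors act. When a ligand of the Delta or Jagged family binds a Notch receptor on a neighbouring cell, the receptor's intracellular part is cut free, enters the nucleus and joins Rbpj and Mastermind to switch on target genes such as the Hes and Hey repressors; without it, Rbpj can hold the same genes down. In embryonic muscle this signalling keeps Pax3- and Pax7-positive progenitors from differentiating early, and MyoD is the basic helix-loop-helix factor that drives them into differentiation. DnMaml is a dominant-negative form of Mastermind, which blocks activation by Notch while Rbpj itself stays in place.

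The deletion itself could not be read. The 3 probes of Rbpj were detected in 0 of the 47 arrays at a detection p under 0.01. Myod1, which all groups carry as a deleted allele, had a log2 intensity of 8.54 to 9.70 (median 8.88) in the Rbpj double mutant samples, against 8.98 to 9.63 (median 9.28) in the MyoD-/- samples. Its change of -0.37 ± 0.12 (standard error, SE) had an adjusted p of 0.0241, which became 0.0501 to 0.120 without replicate 2, 5 or 6-7 of the Rbpj double mutant. Wild-type samples of the series had 10.76 to 11.47 (n = 9), above both. The sources used here do not place the probe inside or outside the deleted stretch. The probes of Pax3 and Pax7, which define embryonic muscle progenitors, were detected in 0 of these 25 arrays, and that of Myf5 in 0 Rbpj double mutant arrays and 2 MyoD-/- arrays. Other genes of muscle progenitors, such as Vcam1, Msc, Megf10 and Chodl, were detected in all 25. The number of probes detected per array was 9632 to 11819 in the Rbpj double mutant and 9109 to 11768 in MyoD-/-.

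A gene was called changed at a Benjamini-Hochberg adjusted p under 0.05 in limma's moderated test over all 8658 genes, with chip set as a covariate. Values below are log2 intensities, changes are log2 differences with their SE, and a change of 1 is a doubling. Between the Rbpj double mutant and MyoD-/-, 1742 genes (20.1%) were called, of which 883 (10.2% of those tested) rose and 859 (9.92%) fell. The median change of all genes was -0.02. Changes of at least 1 in size were more often rises, with 237 genes against 90 that fell. Of the called genes, 1673 had the same sign in 4 of 4 chip sets that held both genotypes. The levels of the 6 Rbpj double mutant samples and the 16 MyoD-/- samples did not overlap for 1.76% of the genes. The count of calls leans on replicate 5 of the Rbpj double mutant, without which it was 1146.

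**Figure D1:**
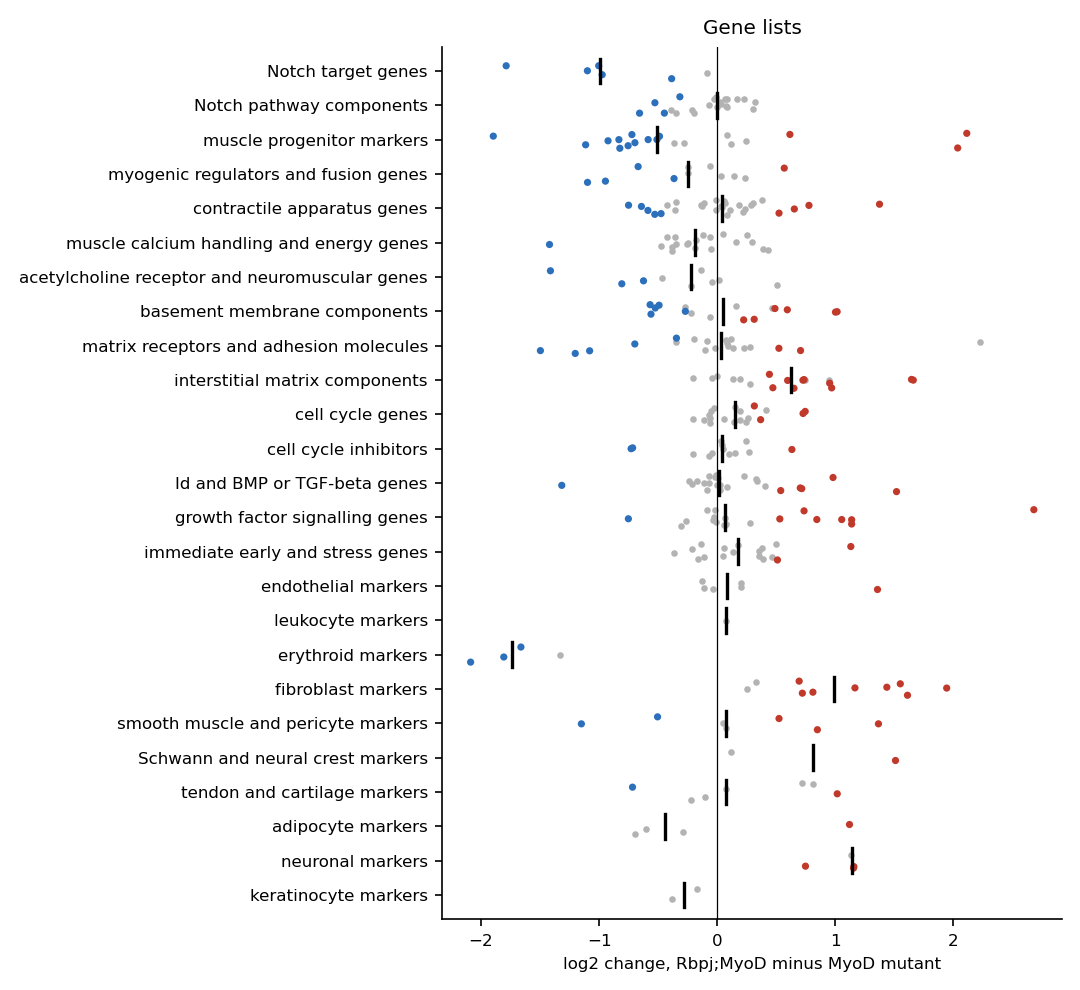
Log2 change in the Rbpj;MyoD mutant against MyoD-/- for each tested member of the gene lists. Each dot is 1 gene, in red where it was called higher, in blue where it was called lower and in grey where it was not called, and the black bar is the median of the list; Notch target genes lie furthest below 0 among the lists of muscle and signalling genes, with a median of -0.99, and fibroblast markers lie above it, with a median of 0.99.

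Of 6 Notch target genes tested, 5 fell and 0 rose, against 9.92% of all genes that fell. The median of this list was -0.99, or -0.69 with undetected genes set at their bound, and it lay between -1.02 and -0.905 in the 4 chip sets. Heyl, a Hes-family repressor switched on by Notch, had levels of 5.08 to 6.21 (median 5.26) in the Rbpj double mutant samples, against 6.36 to 8.04 (median 7.11) in the MyoD-/- samples. It was detected in 0 of 7 Rbpj double mutant arrays and 16 of 18 MyoD-/- arrays, so that the fall is given only as at least 1.33-fold (adjusted p = 2.75e-08). Every Rbpj double mutant sample lay below every MyoD-/- sample.

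Notch3, a receptor that is itself raised by Notch signalling, had 9.25 to 9.54 (median 9.37) in Rbpj double mutant samples and 9.72 to 10.81 (median 10.52) in MyoD-/- samples. The change was -1.10 ± 0.13 (adjusted p = 1.67e-07), a 2.14-fold fall with no overlap between groups. Dtx4, a Deltex-family ubiquitin ligase that acts on Notch receptors, had 9.54 to 9.80 (median 9.72) in Rbpj double mutant samples and 10.24 to 11.19 (median 10.67) in MyoD-/- samples. Its groups also stood apart, with a change of -1.0 ± 0.11 (adjusted p = 7.2e-09). Hey1, a repressor related to Heyl, had 10.54 to 11.40 (median 10.81) in Rbpj double mutant samples and 11.03 to 12.52 (median 11.77) in MyoD-/- samples. Its change was -0.97 ± 0.15 (adjusted p = 5.29e-06), and the groups overlapped. Hes1 was down by less, at -0.39 ± 0.12 (adjusted p = 0.0178), and its call was lost without replicate 4 (adjusted p = 0.114) or replicate 5 (adjusted p = 0.0752) of the Rbpj double mutant. Nrarp, a Notch-induced feedback inhibitor, is named because it was the member that missed the threshold. Its change was -0.08 ± 0.23 (adjusted p = 0.848), and it was detected in 3 of 7 Rbpj double mutant arrays and 6 of 18 MyoD-/- arrays. Hes5, Hes7, Hey2, Dtx1 and Lfng were on the array but were detected in too few arrays to be tested.

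The same 6 genes were set against the DnMaml double mutant directly. In limma's test 0 of the 6 differed at the threshold, where 3.94% of all genes did, and 0 had an unadjusted p under 0.05. Heyl had 5.08 to 6.21 in Rbpj double mutant samples and 5.08 to 6.08 (median 5.35) in DnMaml double mutant samples, a difference of -0.30 ± 0.25 (adjusted p = 0.637). Heyl was detected in 0 of 7 Rbpj double mutant arrays and 0 of 8 DnMaml double mutant arrays. For this gene the test thus compared background with background, and a difference could not be read. Notch3 had 9.25 to 9.54 in Rbpj double mutant samples and 8.63 to 9.47 (median 9.06) in DnMaml double mutant samples, a difference of 0.23 ± 0.17 (adjusted p = 0.563). The difference was 0.19 ± 0.18 for Hey1 and -0.21 ± 0.13 for Dtx4. Differences of the size of these SEs could not be resolved with this many samples.

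**Figure D2:**
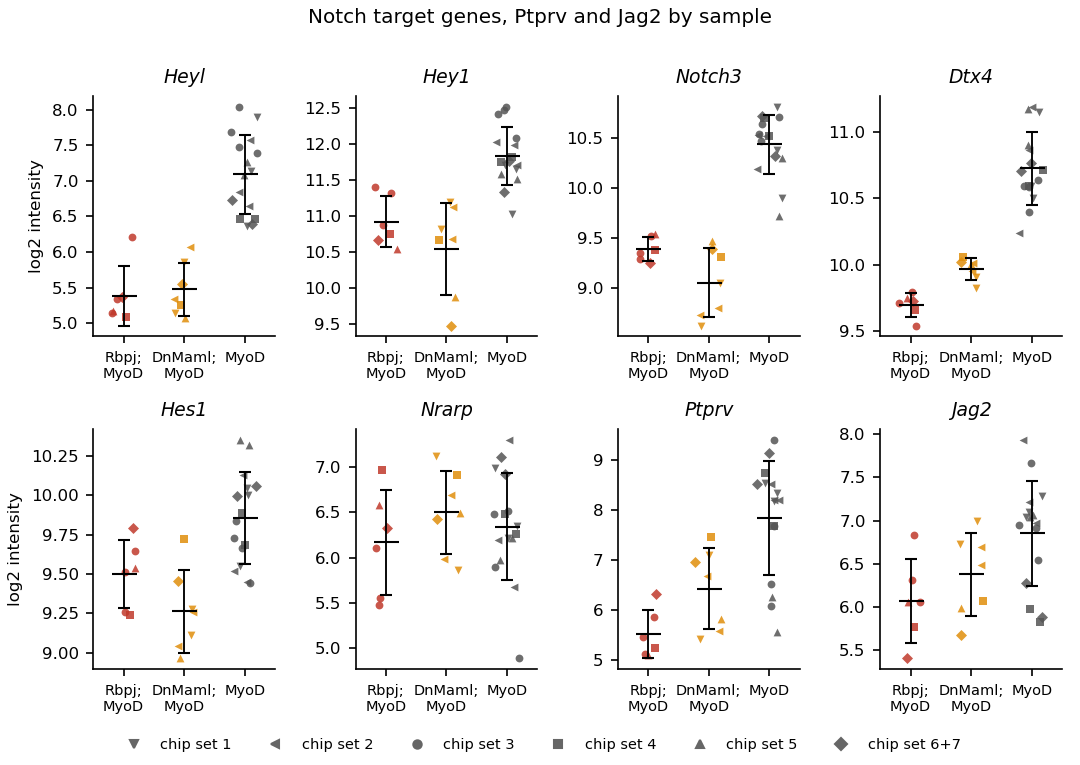
Log2 intensity of 8 genes of the Notch pathway and its surroundings in Rbpj;MyoD, DnMaml;MyoD and MyoD-/- samples, left to right in each panel. Each point is 1 sample, its shape marks the chip set, and bars give the mean and SD; Heyl, Notch3 and Dtx4 in the Rbpj;MyoD samples lie below all MyoD-/- samples, whereas Nrarp overlaps fully.

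Of 22 other components of the Notch pathway tested, 4 fell and 0 rose. These are 18.2% of the list, against 20.1% of all genes that were called, and the falls numbered 2 without replicate 5 of the Rbpj double mutant and 2 when arrays were scaled by their medians. Jag2, a Notch ligand, was detected in 0 of 7 Rbpj double mutant arrays and 9 of 18 MyoD-/- arrays, which gives a fall of at least 1.13-fold (adjusted p = 0.00611). Dll1, another ligand, changed by -0.45 ± 0.14 (adjusted p = 0.0188), a call lost without replicate 3 or 6-7 of the Rbpj double mutant (adjusted p = 0.0655 and 0.133). Maml1, which encodes a Mastermind coactivator, had 9.20 to 9.80 (median 9.72) in Rbpj double mutant samples and 9.04 to 10.28 (median 9.76) in MyoD-/- samples, and its adjusted p was 0.986.

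The largest falls of all were seen in genes outside that pathway, although Heyl was also among the 15 largest falls. Cck, which encodes the neuropeptide cholecystokinin, had 6.50 to 8.34 (median 7.51) in Rbpj double mutant samples and 8.61 to 10.82 (median 9.97) in MyoD-/- samples. The change was -2.39 ± 0.17 (5.25-fold, adjusted p = 1.41e-12), without overlap. Dpysl5, a growth cone protein of neurons, had 5.98 to 7.19 (median 6.43) in Rbpj double mutant samples and 7.70 to 9.56 (median 8.54) in MyoD-/- samples, a 4.44-fold fall. It was detected in 3 of 7 Rbpj double mutant arrays and 18 of 18 MyoD-/- arrays, so the size of its fall is limited by the background. Sim2, a helix-loop-helix factor of the PAS family, had 7.2 to 9.23 (median 7.83) in Rbpj double mutant samples and 9.74 to 11.05 (median 10.19) in MyoD-/- samples, a 4.41-fold fall. For both, as for the membrane protein gene Tmem255a (-2.10 ± 0.15) and the netrin gene Ntn5 (-2.08 ± 0.18), the groups did not overlap. Ptprv, a receptor-type tyrosine phosphatase gene, was detected in 2 of 7 Rbpj double mutant arrays and 14 of 18 MyoD-/- arrays, with a change of -2.11 ± 0.36 (adjusted p = 3.02e-05).

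Several of these genes fell further in the Rbpj double mutant than in the DnMaml double mutant. The direct difference was -1.44 ± 0.21 for Cck (adjusted p = 2.2e-05), -1.5 ± 0.20 for Dpysl5 (adjusted p = 2.83e-06), -1.5 ± 0.23 for Sim2 (adjusted p = 5.3e-05) and -1.27 ± 0.18 for Tmem255a (adjusted p = 1.52e-05). Ntn5 and Ptprv did not pass this test, with differences of -0.45 ± 0.23 (adjusted p = 0.348) and -0.54 ± 0.44 (adjusted p = 0.627). The potassium channel gene Kcnk13 had 6.03 to 7.09 (median 6.42) in Rbpj double mutant samples and 8.59 to 9.24 (median 9.04) in DnMaml double mutant samples, with MyoD-/- samples at 7.03 to 9.16 (median 8.09). It was thus lowest in the Rbpj double mutant, with a difference of -2.63 ± 0.23 from the DnMaml double mutant (adjusted p = 1.02e-09, no overlap) and of -1.79 ± 0.18 from MyoD-/- (adjusted p = 3.43e-09, with overlap). Kcnk13 was detected in 4 of 7 Rbpj double mutant arrays, so the sizes of its differences are limited by the background, as is that of Dpysl5.

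Because Rbpj binds DNA at the core sequence TGGGAA, the 250 bases before the start of each gene were searched for it on both strands, in the RefSeq promoters of build GRCm38.p6. Among the 15 genes with the largest falls, 11 had a promoter in that table and 5 of these held the sequence. They are shown as examples of where it lies, on the strand of the gene from 5′ to 3′, with the core in capitals, from chr9:121495855-121495940 (minus strand) for Cck, chr5:30711361-30711446 (plus) for Dpysl5, chr7:45683937-45684021 (plus) for Ntn5, chr16:78930714-78930799 (plus) for Chodl and chr12:99964380-99964465 (plus) for Kcnk13.
Cck: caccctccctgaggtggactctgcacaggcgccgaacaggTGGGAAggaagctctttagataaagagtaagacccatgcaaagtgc
Dpysl5: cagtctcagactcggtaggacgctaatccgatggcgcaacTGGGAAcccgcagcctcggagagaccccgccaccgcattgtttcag
Ntn5: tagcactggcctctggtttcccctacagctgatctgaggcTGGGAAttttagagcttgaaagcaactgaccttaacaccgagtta
Chodl: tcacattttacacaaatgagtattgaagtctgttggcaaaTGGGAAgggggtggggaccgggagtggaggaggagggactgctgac
Kcnk13: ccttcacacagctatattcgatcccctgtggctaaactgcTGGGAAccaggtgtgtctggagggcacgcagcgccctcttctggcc
The core began 206 bases before the start of Cck, 163 before Dpysl5, 45 before Ntn5, 194 before Chodl and 79 before Kcnk13. The same letters stood before 1 of the 8 genes with a promoter found among the 15 largest rises, and before 0 of 2 such Notch target genes tested. They stood in 21.6% of all 32851 promoters in the table. Counted by gene, where a match in any promoter of the gene sufficed, they stood in 23.7% of genes tested. That share was 25.9% of genes called lower and 28.0% of genes called higher, among genes with a promoter in the table. The share of promoters is thus not a like measure for the shares of genes. A match of these letters is a description and no binding site.

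Genes of the progenitor state mostly fell. Of 19 muscle progenitor markers tested, 11 fell and 3 rose, against 9.92% and 10.2% of all genes, and the median was -0.51, or -0.33 with undetected genes at their bound. Without replicate 5 of the Rbpj double mutant 7 fell and 3 rose. The rises were those of Meox1 and Meox2, described below, and of the syndecan gene Sdc3. One of the falls, Calcr, was detected in 0 arrays of either genotype and has no fold. Msc, which encodes the repressor musculin, had 13.59 to 14.16 (median 13.85) in Rbpj double mutant samples and 14.42 to 14.98 (median 14.74) in MyoD-/- samples. Its change was -0.82 ± 0.08 (adjusted p = 6.56e-10), with no overlap. Chodl, a membrane lectin gene of muscle progenitors, had 9.34 to 10.59 (median 10.42) in Rbpj double mutant samples and 10.99 to 12.49 (median 11.99) in MyoD-/- samples, a 3.72-fold fall with no overlap. Megf10, an engulfment receptor that also acts in satellite cell proliferation, changed by -0.83 ± 0.09 (adjusted p = 2.75e-08) with overlapping groups. Cxcr4, the chemokine receptor of migrating muscle precursors, had 9.07 to 10.75 (median 10.28) in Rbpj double mutant samples and 10.51 to 12.002 (median 11.46) in MyoD-/- samples, a change of -1.11 ± 0.14.

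Vcam1, which encodes the protein used to sort these cells and is given here for that reason after its values were seen, had 13.40 to 13.94 (median 13.65) in Rbpj double mutant samples and 13.70 to 14.75 (median 14.41) in MyoD-/- samples. It changed by -0.58 ± 0.12 (adjusted p = 0.00064) although all cells had passed the same gate. In such bulk samples, fewer cells of a type and less RNA per cell cannot be told apart.

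Against the DnMaml double mutant, Chodl differed by -0.73 ± 0.19 (adjusted p = 0.0204) and Megf10 by -0.60 ± 0.12 (adjusted p = 0.000854), both lower in the Rbpj double mutant. Msc, at -0.12 ± 0.10 (adjusted p = 0.607), and Cxcr4, at -0.46 ± 0.18 (adjusted p = 0.161), did not pass that test.

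Of 20 matrix receptors and adhesion molecules tested, 5 fell and 2 rose, against 9.92% and 10.2% of all genes, and the median was 0.03. Cd44 was not called on its brightest probe (-0.10), whereas its other probes changed by 0.91, 0.70, 1.44 and 0.32. In limma's test over all probes these had adjusted p of 0.00519, 0.00593, 0.000932 and 0.253. Surface and membrane proteins of muscle cells were among the falls. Itga7, the integrin subunit by which muscle cells hold laminin, had 9.01 to 10.47 (median 9.66) in Rbpj double mutant samples and 10.53 to 12.05 (median 11.36) in MyoD-/- samples. The change was -1.5 ± 0.13 (2.82-fold, adjusted p = 3.81e-11), and the highest Rbpj double mutant sample lay just under the lowest MyoD-/- sample. Mcam, an adhesion molecule of the immunoglobulin family, had 10.07 to 10.35 (median 10.16) in Rbpj double mutant samples and 10.68 to 11.56 (median 11.39) in MyoD-/- samples, a change of -1.08 ± 0.10 with no overlap. DnMaml double mutant samples held 10.91 to 11.20 (median 11.05) of Mcam, and the difference of the Rbpj double mutant from these was -0.82 ± 0.12 (adjusted p = 2.55e-05), again without overlap. Sgca, a sarcoglycan of the dystrophin complex, changed by -1.20 ± 0.16 (its other probes by -1.40 and -0.40) and the tetraspanin gene Cd82 by -0.70 ± 0.13, whereas the integrin gene Itgb5 rose by 0.71 ± 0.11.

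Cav3, the caveolin of muscle cells, had 6.16 to 7.41 (median 6.51) in Rbpj double mutant samples and 7.42 to 8.57 (median 8.08) in MyoD-/- samples. It was detected in 2 of 7 Rbpj double mutant arrays and in 18 of 18 MyoD-/- arrays, with a change of -1.42 ± 0.13 (adjusted p = 5.71e-10). DnMaml double mutant samples held 7.82 to 8.90 (median 8.13), and the direct difference was -1.65 ± 0.16 (adjusted p = 2.24e-08). The Rbpj double mutant samples were below all samples of both other groups.

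Of 9 genes of the acetylcholine receptor and the neuromuscular junction, 3 fell and 0 rose, against 9.92% and 10.2% of all genes. Musk, the receptor kinase that organises the junction, changed by -1.41 ± 0.26 (adjusted p = 0.000136), and by -0.67 on its second probe. Rapsn, which clusters acetylcholine receptors, changed by -0.81 ± 0.13 (adjusted p = 8.19e-06), and the receptor subunit gene Chrnb1 by -0.62 ± 0.13 (adjusted p = 0.000704). Groups overlapped for all 3.

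**Figure D3:**
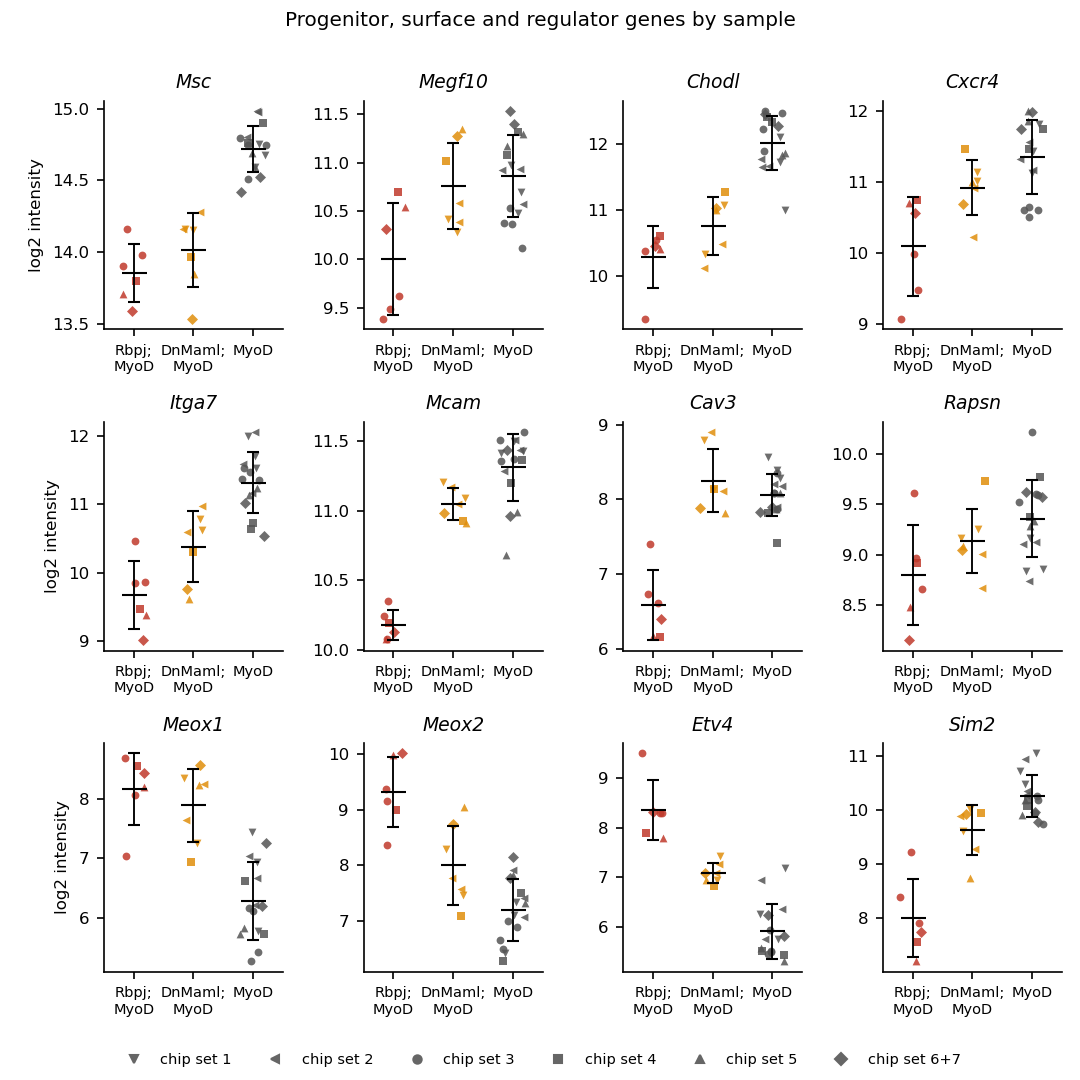
Log2 intensity of 12 progenitor, surface and transcription factor genes in Rbpj;MyoD, DnMaml;MyoD and MyoD-/- samples, left to right in each panel, with 1 point per sample, shapes for chip sets and bars for mean and SD. Msc, Chodl, Itga7, Mcam, Cav3 and Sim2 in the Rbpj;MyoD samples lie below all MyoD-/- samples, and Meox2 and Etv4 lie above them.

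Muscle differentiation genes gave a mixed picture against MyoD-/-. Among all genes 10.2% rose and 9.92% fell. Of 11 myogenic regulators and fusion genes tested, 4 fell and 1 rose, and without replicate 5 of the Rbpj double mutant 2 fell and 1 rose, or 3 and 0 when arrays were scaled by their medians. Of 29 genes of the contractile apparatus, 4 rose and 5 fell, with a median of 0.05 that turned to -0.09 when arrays were scaled by their medians in place of quantile normalisation, a scaling that moved the median of all genes to -0.09 too. The falls of this list numbered 3 under that scaling and 3 without replicate 5. Of 20 genes of muscle calcium handling and energy use, 0 rose and 1 fell (5% of the list), with a median of -0.18. Ttn, which encodes the giant spring protein titin, had 7.54 to 8.51 (median 8.21) in Rbpj double mutant samples and 5.55 to 7.59 (median 6.87) in MyoD-/- samples, a rise of 1.38 ± 0.19 (adjusted p = 1.07e-06) with overlap only at the edge. Tnnt1, the slow skeletal troponin T, rose by 0.78 ± 0.11, and Des, the muscle intermediate filament gene, by 0.52 ± 0.11. Myh8, the perinatal myosin heavy chain gene, fell by 0.75 on the log2 scale (SE 0.12, adjusted p = 1e-05), and the groups touched at their edges.

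Myog, the regulator that commits myoblasts to fuse, had 7.64 to 8.09 (median 8.07) in Rbpj double mutant samples and 7.64 to 10.05 (median 8.71) in MyoD-/- samples. The change adjusted for chip set was -1.10 ± 0.24 (adjusted p = 0.000796). A second probe of Myog changed by -0.38 ± 0.26 and did not pass (adjusted p = 0.333 over all probes). Without the chip term it was -0.74 (adjusted p = 0.108), so this call rests on 1 of 2 probes and on the comparison within chips. Rb1, the retinoblastoma gene needed for myoblasts to leave the cell cycle, changed by -0.72 ± 0.14 (adjusted p = 0.000151).

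Muscle genes separated the 2 double mutants. In the DnMaml double mutant against MyoD-/-, where 8.81% of all genes were called and 5.39% rose, 22 of the 29 contractile genes rose and 1 fell, with a median of 0.84 (3.42% of all genes fell). In the same comparison 12 of the 20 calcium and energy genes rose and 0 fell, with a median of 0.99. Set directly against the DnMaml double mutant, where 2.34% of all genes were called lower, the Rbpj double mutant was lower for 13 contractile genes and for 14 calcium and energy genes, and higher for 0 of either list, where 1.59% of all genes were called higher. The medians were -0.71 and -1.17, against 0.00 for all genes. Of the calcium and energy list, Cacng1, Casq2, Srl, Stac3, Ckmt2 and Mb were detected in 0 of 7 Rbpj double mutant arrays. The sizes of such differences are limited by the background and are not folds. The Rbpj double mutant and DnMaml double mutant comparisons share their MyoD-/- samples, whereas the direct test does not use those as the other side. It is still not free of them, because they help to set the chip set terms. Chip set 3 held 0 DnMaml double mutant samples, and chip sets 1 and 2 held 0 Rbpj double mutant samples.

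Except for Myog, Ttn and Tnnt1, the genes that follow were chosen after their values were seen, as examples of that difference. On its brighter probe Myog had 7.64 to 8.09 in Rbpj double mutant samples, against 9.57 to 10.62 (median 9.74) in DnMaml double mutant samples, a difference of -2.48 ± 0.29 (adjusted p = 6.76e-07). Tnnc1, the slow and cardiac troponin C, had 9.50 to 9.99 (median 9.78) in Rbpj double mutant samples, 11.24 to 11.65 (median 11.48) in DnMaml double mutant samples and 8.52 to 9.75 (median 9.15) in MyoD-/- samples. The Rbpj double mutant samples lay below all DnMaml double mutant samples and overlapped with MyoD-/-, with a difference of 0.30 ± 0.18 from MyoD-/- (adjusted p = 0.251). Chrna1, the alpha subunit of the muscle acetylcholine receptor, had 9.59 to 10.83 (median 9.97) in Rbpj double mutant samples, 11.36 to 12.04 (median 11.84) in DnMaml double mutant samples and 9.78 to 11.05 (median 10.56) in MyoD-/- samples. Casq2, a calcium store protein gene, had 5.37 to 6.55 (median 5.68) in Rbpj double mutant samples, 6.87 to 8.43 (median 7.45) in DnMaml double mutant samples and 5.15 to 6.41 (median 5.86) in MyoD-/- samples. It was detected in 0 of 7 Rbpj double mutant arrays and 2 of 18 MyoD-/- arrays, so its levels in both are near background. No Rbpj double mutant sample reached the DnMaml double mutant range for any of these 4 genes. By contrast, Ttn and Tnnt1 had direct differences of 0.01 ± 0.23 and -0.05 ± 0.14.

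The 2 double mutants shared only chip sets 4, 5 and 6+7, since the other Rbpj double mutant samples lay on chip set 3 and the other DnMaml double mutant samples on sets 1 and 2. Within the shared sets alone, which is an analysis added after the data were seen, 13 contractile and 10 calcium and energy genes were lower in the Rbpj double mutant and 0 were higher. Leaving out each double mutant sample in turn gave 12 to 14 and 10 to 14 lower genes.

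**Figure D4:**
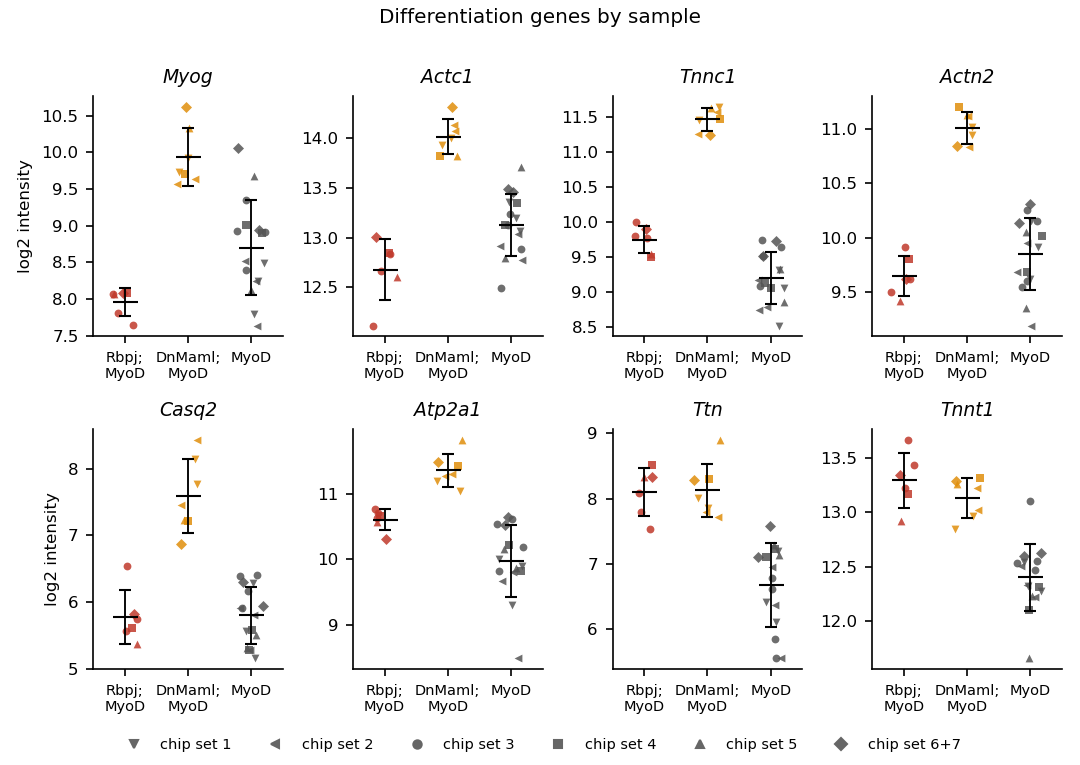
Log2 intensity of 8 muscle differentiation genes in Rbpj;MyoD, DnMaml;MyoD and MyoD-/- samples, left to right in each panel, with 1 point per sample, shapes for chip sets and bars for mean and SD. For Myog, Tnnc1 and Casq2 the Rbpj;MyoD samples lie below all DnMaml;MyoD samples, whereas for Ttn both double mutants lie at the same height above most MyoD-/- samples.

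The largest rises were in genes of other kinds. Cntnap4, a neurexin-related adhesion protein gene, had 9.21 to 9.76 (median 9.56) in Rbpj double mutant samples and 5.90 to 7.2 (median 6.59) in MyoD-/- samples. The change of 2.88 ± 0.19 (7.36-fold, adjusted p = 4.23e-13) left a gap of about 2 log2 units between the groups, and a second probe changed by 1.40 ± 0.14. Cntnap4 was detected in 7 of 7 Rbpj double mutant arrays and 8 of 18 MyoD-/- arrays, so the size of its rise is limited by the background. Etv4, an ETS factor that acts downstream of FGF receptors, had 7.79 to 9.48 (median 8.29) in Rbpj double mutant samples and 5.32 to 7.18 (median 5.77) in MyoD-/- samples, a 6.42-fold rise. Pf4, a chemokine gene best known from platelets, had 7.76 to 9.35 (median 8.49) in Rbpj double mutant samples and 5.11 to 6.62 (median 5.62) in MyoD-/- samples, a 5.78-fold rise. Etv4 and Pf4 were each detected in 7 of 7 Rbpj double mutant arrays and in 2 of 18 MyoD-/- arrays, with no overlap. Anxa3, an annexin gene, rose by 2.09 ± 0.16 (adjusted p = 9.9e-12) and Slc7a10, an amino acid transporter gene, by 2.06 ± 0.22 (adjusted p = 1.11e-08), both without overlap. Slc7a10 was detected in 6 of 7 Rbpj double mutant arrays and 3 of 18 MyoD-/- arrays.

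Meox1 and Meox2, related homeobox genes of the somite and of early muscle precursors, rose together. Meox2 had 8.36 to 10.01 (median 9.26) in Rbpj double mutant samples and 6.27 to 8.15 (median 7.21) in MyoD-/- samples, a change of 2.11 ± 0.28 (adjusted p = 7.37e-07) with no overlap. Meox1 had 7.03 to 8.68 (median 8.31) in Rbpj double mutant samples and 5.28 to 7.45 (median 6.19) in MyoD-/- samples, a change of 2.04 ± 0.27 (adjusted p = 7.37e-07) with overlapping groups.

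In the direct test against the DnMaml double mutant, Etv4 was higher in the Rbpj double mutant by 1.62 ± 0.27 (adjusted p = 0.000155), Pf4 by 1.31 ± 0.24 (adjusted p = 0.000605), Anxa3 by 1.07 ± 0.20 (adjusted p = 0.000686) and Cntnap4 by 0.99 ± 0.24 (adjusted p = 0.0102). Meox2 was higher by 1.41 ± 0.35 (adjusted p = 0.0116), a call that reached an adjusted p of 0.0511 when single samples were left out. Meox1 did not pass, at 0.59 ± 0.34 (adjusted p = 0.431).

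Extracellular matrix genes and fibroblast markers rose side by side. Among all genes 10.2% rose and 9.92% fell. Of 18 components of the interstitial matrix tested, 10 rose and 0 fell, with a median of 0.62. Of 10 fibroblast markers tested, 8 rose and 0 fell, with a median of 0.99 and chip set medians of 0.918 to 1.48. Scaling arrays by their medians left 5 rises in each list. The summed intensity of the fibroblast list was 74420 to 115300 in Rbpj double mutant samples and 41030 to 84020 in MyoD-/- samples, and replicate 1 of MyoD-/-, at the top of that range, was the MyoD-/- sample that reached the range of the Rbpj double mutant. Of the 12 listed markers 11 were on the array, and Tcf21 was detected in 0 of the 25 arrays. Without that replicate the fibroblast counts were again 8 and 0, with a median of 1.01, and without replicate 5 of the Rbpj double mutant, the highest sample, 7 rose and 0 fell. The part of other cells within the sort in the rises of matrix genes was not tested.

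Among the fibroblast markers, Pdgfra, a growth factor receptor of mesenchymal cells, had 9.86 to 11.76 (median 10.91) in Rbpj double mutant samples and 7.51 to 10.70 (median 9.15) in MyoD-/- samples, a change of 1.94 ± 0.36 (adjusted p = 0.000104). Dcn, which encodes the collagen-binding proteoglycan decorin, had 14.31 to 14.97 (median 14.60) in Rbpj double mutant samples and 12.27 to 14.23 (median 13.50) in MyoD-/- samples, a change of 1.17 ± 0.19 without overlap. Lum, the related proteoglycan lumican, had 12.08 to 13.10 (median 12.62) in Rbpj double mutant samples and 10.01 to 13.86 (median 11.11) in MyoD-/- samples, where the highest value was that of replicate 1. Against the DnMaml double mutant 0 of the 10 differed at the threshold in limma's test, although 7 were higher at an unadjusted p under 0.05, and 2 were called higher on the chip sets shared by both double mutants.

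Thbs2, a matricellular thrombospondin gene, had 12.48 to 13.46 (median 13.27) in Rbpj double mutant samples and 10.85 to 12.19 (median 11.51) in MyoD-/- samples, a 3.13-fold rise with no overlap. Tnxb, which encodes tenascin-X, had 11.39 to 12.41 (median 12.06) in Rbpj double mutant samples and 8.77 to 10.25 (median 9.75) in MyoD-/- samples, a 4.31-fold rise with no overlap. Col1a1, a chain of fibrillar collagen I, had 12.53 to 14.44 (median 13.49) in Rbpj double mutant samples and 10.42 to 14.52 (median 12.21) in MyoD-/- samples, so its groups overlapped widely despite a change of 1.66 ± 0.29 (adjusted p = 5.93e-05).

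Of 16 basement membrane components tested, 6 rose and 5 fell, against 10.2% and 9.92% of all genes. The counts of the list became 2 and 5 when arrays were scaled by their medians. Nid1 and Nid2, the nidogens that link laminin to collagen IV, rose by 1.02 ± 0.16 (adjusted p = 8.7e-06) and 1.0 ± 0.17 (adjusted p = 4.34e-05). Col18a1, a collagen of the basement membrane, changed by -0.57 ± 0.08 (adjusted p = 9e-07), and Col4a2, a chain of collagen IV, by -0.49 ± 0.11 (adjusted p = 0.000989).

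**Figure D5:**
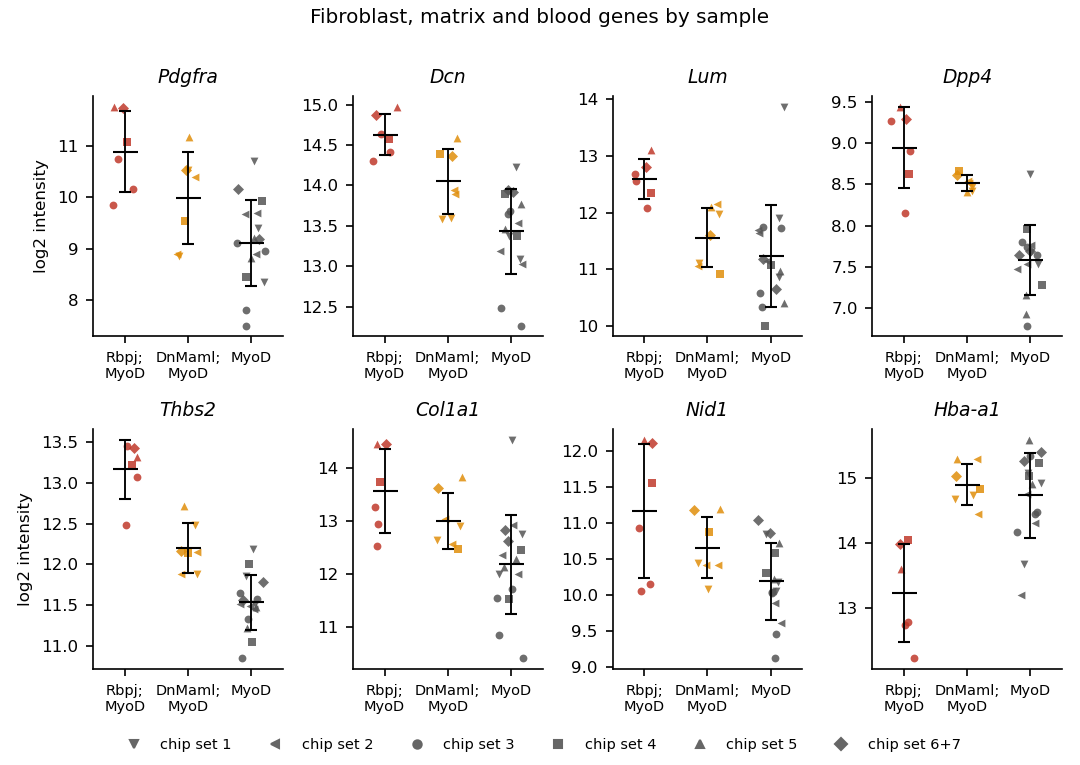
Log2 intensity of 7 matrix and fibroblast genes and of the haemoglobin gene Hba-a1 in Rbpj;MyoD, DnMaml;MyoD and MyoD-/- samples, left to right in each panel, with 1 point per sample, shapes for chip sets and bars for mean and SD. Dcn and Thbs2 in the Rbpj;MyoD samples lie above all MyoD-/- samples, 1 MyoD-/- sample is the highest for Lum, and Hba-a1 is lower in the Rbpj;MyoD samples with overlap.

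Markers of blood cells were also measured. Of 4 erythroid markers tested, 3 fell and 0 rose, against 9.92% and 10.2% of all genes, with a median of -1.73. The summed intensity of the list was 4909 to 17690 in Rbpj double mutant samples and 9794 to 52530 in MyoD-/- samples. Hba-a1, an alpha haemoglobin gene, had 12.21 to 14.04 (median 13.18) in Rbpj double mutant samples and 13.20 to 15.59 (median 14.91) in MyoD-/- samples, a change of -1.66 ± 0.24 (adjusted p = 2.42e-06). Alas2, the enzyme of haem synthesis in red cells, changed by -2.09 ± 0.31 (adjusted p = 4.55e-06). It was detected in 3 of 7 Rbpj double mutant arrays and 15 of 18 MyoD-/- arrays. The leukocyte genes Ptprc, which encodes the CD45 used in the sort, Aif1, Tyrobp, Fcer1g, Cd52, Lyz2 and C1qa were detected in 0 of the 25 arrays, as were the endothelial genes Cdh5, Kdr and Tie1. Other members of both lists were detected. The endothelial genes Tek, Egfl7 and Esam were detected in 7 of 7 Rbpj double mutant arrays and 18 of 18 MyoD-/- arrays. Emcn was detected in 4 and 9 of these arrays, and Pecam1, which encodes the CD31 used in the sort, in 1 and 2. The leukocyte gene Laptm5 was detected in 4 and 7. The endothelial marker Eng, a TGF-beta co-receptor gene that mesenchymal cells also express, rose by 1.35 ± 0.22. Of 2 Schwann and neural crest markers tested 1 rose, Ngfr, the low-affinity neurotrophin receptor gene, by 1.5 ± 0.20, while S100b, Foxd3, Cdh19 and Mal were detected in 0 of the 25 arrays. Of 4 neuronal markers tested 3 rose, against 10.2% of all genes, while Tubb3, Snap25, Nefl, Elavl4 and Prph were detected in 0 of the 25 arrays. The rises of this list numbered 2 without replicate 5 of the Rbpj double mutant and 2 when arrays were scaled by their medians. Among the rises was the growth cone gene Gap43, which had 10.38 to 11.45 (median 11.07) in Rbpj double mutant samples and 9.38 to 10.28 (median 9.94) in MyoD-/- samples. Another, Stmn2, was detected in 3 of 7 Rbpj double mutant arrays and 1 of 18 MyoD-/- arrays. Its call in limma's test was lost without replicate 4 or 6-7 of the Rbpj double mutant (adjusted p = 0.0529 and 0.0525).

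Among 7 smooth muscle and pericyte markers 3 rose and 2 fell, against 10.2% and 9.92% of all genes. Without replicate 5 of the Rbpj double mutant 2 of these markers rose and 1 fell. Abcc9, a potassium channel subunit of pericytes, rose by 1.37 ± 0.19, and Tagln, a smooth muscle actin-binding protein gene, changed by -1.15 ± 0.16. Abcc9 was detected in 6 of 7 Rbpj double mutant arrays and 2 of 18 MyoD-/- arrays, and Tagln in 1 and 14 of these. Of 7 tendon and cartilage markers 1 rose and 1 fell. Of 4 adipocyte markers 1 rose, the lipoprotein lipase gene Lpl, by 1.12 ± 0.16, and 0 fell. Of 6 endothelial markers Eng was the 1 called, and neither the 1 leukocyte marker nor the 2 keratinocyte markers tested were called. These markers were counted to show what else the sorted cells expressed, and their part in the other changes was not tested.

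Of 20 genes of growth factor signalling tested, 7 rose and 1 fell, against 10.2% and 9.92% of all genes, with a median of 0.07. Vegfa, the angiogenic factor, had 12.04 to 12.52 (median 12.21) in Rbpj double mutant samples and 11.08 to 11.99 (median 11.46) in MyoD-/- samples, a change of 0.74 ± 0.11 (adjusted p = 3.17e-06) with no overlap. Igfbp4, which binds insulin-like growth factors, rose by 0.84 ± 0.11 without overlap and Igfbp2 by 1.05 ± 0.17. The fall was that of Pdgfa, a ligand of the receptor encoded by Pdgfra, which had 12.13 to 12.65 (median 12.59) in Rbpj double mutant samples and 12.69 to 13.63 (median 13.32) in MyoD-/- samples, a change of -0.75 ± 0.12 (adjusted p = 1.18e-05). Pdgfa and its receptor thus moved in opposite directions. Of 24 genes of BMP and TGF-beta signalling, Id genes included, 5 rose and 1 fell. These are 25% of the list, near the 20.1% of all genes that were called, with a median of 0.01. When arrays were scaled by their medians, 3 rose and 1 fell. Fst, which encodes the secreted BMP and activin antagonist follistatin, rose by 1.52 ± 0.30 (adjusted p = 0.000323). Bmp6, a BMP ligand gene, was called lower (adjusted p = 4.8e-06) and was detected in 0 of 7 Rbpj double mutant arrays and 9 of 18 MyoD-/- arrays.

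Of 19 cell cycle genes tested, 4 rose and 0 fell, with a median of 0.15. These are 21.1% of the list, near the 20.1% of all genes that were called, and the rises numbered 1 without replicate 5 of the Rbpj double mutant and 0 when arrays were scaled by their medians. Of 13 cell cycle inhibitors 1 rose and 2 fell, which is 23.1% of that list. Ccnd1, the cyclin that answers to growth factors, had 12.45 to 12.92 (median 12.74) in Rbpj double mutant samples and 11.50 to 12.85 (median 11.95) in MyoD-/- samples, a change of 0.73 ± 0.15 (adjusted p = 0.000443) whose adjusted p was 0.0646 when arrays were scaled by their medians. Of 17 immediate early and stress genes, 2 rose and 0 fell, which is 11.8% of that list. Without replicate 5 of the Rbpj double mutant 1 rose, and under that scaling 0 rose.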

How the data were processed

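Total RNA was amplified to biotinylated cRNA and measured on Illumina bead arrays, per the labels. The deposited table holds the intensity of each of 25697 probes without normalisation between arrays and on a linear scale, each with its detection p-value, per the file headers. Both were exported from GenomeStudio 2010.1, per the submitters' processing notes. Processed linear intensities of the authors are also deposited and were the input of 1 alternative (floor 16). Gene names came from the platform annotation (23978 probes with 1 symbol, 1719 with none), updated by gene number for 23962.

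The neqc function of limma 3.58.1 (R 4.3.3) corrected the background, added an offset of 16, quantile-normalised the arrays and took log2. Probes with a detection p under 0.01 in at least 4 of the 47 arrays were kept (12482, of which 718 have no gene name). The brightest was used for each of 2244 genes with several, which gave 8658 genes. Arrays at the same position of chips 6 and 7 were averaged because their deviations correlated at a median of 0.511, although position B had -0.11 and position E, the Rbpj;MyoD pair, 0.12. That pair joined a male and a female and so holds separate embryos, and every array as its own replicate is an alternative. All 5 genotypes of the series entered 1 linear model (lmFit, eBayes) with a fixed term for chip set, which left 31 residual degrees of freedom. Tests are two-sided.

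For a gene that no array of 1 group detected, the fold is a bound, the other group's mean against the higher of the gene's own signal and the lowest detected signal. In list medians at the bound, genes with no bound counted as no change. The genes to name were Myod1, Rbpj, Maml1, the called genes with the 15 largest rises and the 15 largest falls (predicted and sex-specific genes passed over), and from every list the 5 called members of lowest adjusted p, or its member of lowest p where none was called. The genes compared, the lists and the tests were chosen with earlier results of these data known. On simulated data for this comparison (8658 genes), log2 changes of 0.5, 1 and 2 were planted in 66, 67 and 67 genes, with independent normal noise. They were recovered in 54.5%, 92.5% and 100% of these genes, and 5 unchanged genes were called. Far fewer genes changed there than the 20.1% called in the data, so these rates do not carry over. The number of arrays limits the precision. Same-numbered replicates of the 2 genotypes correlated at -0.117 to 0.151 in their deviations, so the numbers do not pair samples. Alternatives changed the normalisation, filter, probe choice, chip term, sex and samples.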

Additional observations from a re-analysis of the deposited data

Results flagged for a closer look

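For 5 of 109 named genes 1 of the 6 Rbpj;MyoD samples stood far from the other 5, where chance alone gives about 1 in 20 groups. Replicate 3, on chip set 3, was the sample in 4 of these. Its log2 intensity was 9.48 for Etv4, where the nearest other sample had 8.31. It was 9.34 for Chodl, with the nearest at 10.4. It was 6.21 for Heyl, with the nearest at 5.37, and 12.1 for Pdgfa, with the nearest at 12.5. For Dusp26, a phosphatase gene among the 15 largest falls, replicate 2 had 5.32 and the nearest sample 5.99. All 5 genes kept their sign and call without each of these samples. The change in chip set 3 against that in the later chip sets differed at the threshold for 0 genes in limma's test. Of the 8658 genes, 413 had an unadjusted p under 0.05, where chance alone gives about 1 in 20 genes.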

How the results depend on the processing

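Against MyoD-/-, the count of 1742 became 1066 with arrays scaled to a common median, 245 on chip set 3 alone, 1049 without chip set 5, and 1146 to 1818 without single Rbpj;MyoD samples (lowest without replicate 5) or 1602 to 1846 without single MyoD-/- samples. Other settings gave 1192 to 2122. Against DnMaml;MyoD, the count of 341 became 193 with that scaling, 588 with every array as its own replicate and 595 with sex as a further covariate. It was 210 without replicate 5 and 225 without replicate 6-7 of the Rbpj;MyoD mutant, and up to 441 without other samples, in alternatives added after the data were seen, as was the count of 334 on chip sets 4, 5 and 6+7. With replicate number as a block the counts were 76 and 82, although the numbers do not pair samples. Of 106 named genes called, 12 kept sign and call in all 40 settings (Cntnap4, Pf4, Anxa3, Cck, Dpysl5, Sim2, Tmem255a, Dtx4, Megf10, Cav3, Itga7 and Mcam), 89 kept both without each sample in turn, and 89 kept sign but lost the call under the replicate block. Mef2c, a muscle transcription factor gene, turned to -0.204 under that block and lost the call too. Genes never called changed sign: Maml1 had 0.000957 with sex, 0.000983 under the block, 0.0555 on chip set 3 alone, 0.0312 without chip set 4 and -0.0496 to 0.0583 without single samples. Laptm5, a leukocyte marker, had -0.265 on chip set 3 alone, -0.0715 without chip set 4 and -0.0548 to 0.205 without single samples. The causes were not tested. Genes near background have only bounds, and 50 called lower were undetected in every Rbpj;MyoD array.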
